A study of Homo sapiens with 9 samples.

Results

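The 10 genes described here, GAS5, ZFAS1, SNHG1, SNHG5, SNHG6, SNHG7, SNHG12, SNHG15, SNHG17 and SNHG32, are noncoding host genes of small nucleolar RNAs (snoRNAs), 10 of the 58214 genes that the transcripts of this data set were summed into. They were chosen by name as classic substrates of nonsense-mediated decay (NMD) with short reading frames, by a rule that names them and sets no threshold on a value. The choice of these genes, and of the other host genes set beside them, was made with earlier results of these data known. RNA was sequenced after poly(A) selection from K562, a human erythroleukaemia line, in 9 libraries. They formed 3 groups of 3 biological replicates: cells that received a non-targeting siRNA (SCR), siRNA against DHX34 or siRNA against UPF1. In every group the siRNA was delivered with DharmaFECT, given again on day 3, and the cells were harvested on day 4, so the controls carried the same transfections as the knockdowns. Knockdown by siRNA is partial, and the line is a single leukaemic model.

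A snoRNA host gene is transcribed as a long precursor, and the snoRNAs are cut out of its introns after splicing. Box C/D snoRNAs guide the methylation of ribosomal RNA and box H/ACA snoRNAs guide its pseudouridylation. The exons that remain are joined into an RNA which, in these genes, encodes no known protein but can still be read by ribosomes in the cytoplasm. Ribosomes that stop upstream of an exon junction expose that RNA to NMD, in which the helicase UPF1 is a core factor, and GAS5 RNA is a long known case. DHX34 is a DEAH-box helicase with roles in NMD and in splicing.

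The first reading frame of the spliced RNA is the feature for which these genes were listed, so it was read from the GENCODE 44 model (GRCh38) of the isoform of each gene with the highest mean TPM (abundance corrected for length) over all 9 libraries. In all 10 isoforms the frame that began at the first ATG stopped upstream of at least 1 exon junction more than 50 bases away, the distance commonly used to predict NMD. The same held for 53.3% of the other lncRNA genes with a mean above 1 TPM (770 of 1446), for 11 of 16 other noncoding snoRNA hosts and for 8 of 35 coding snoRNA hosts. That mean includes the UPF1 knockdown, and in SCR alone SNHG6-205, SNHG12-205 and SNHG32-204 led their genes in place of SNHG6-203, SNHG12-212 and SNHG32-203. With the isoforms that led in SCR, an alternative chosen after seeing the data, the frame stopped upstream of such a junction in 10 of 10 genes and in 52.3% of the other lncRNA genes. Among these isoforms, SNHG12-205 has a snoRNA in an exon, and the model of SNHG6-205 differs by over 50 bases from the length in the files. Only 3 of the 10 models chosen over all 9 libraries had exactly the length listed in the files, so the frames describe the later annotation. The frames ran from 18 codons in SNHG15-203 to 117 codons in ZFAS1-205, with a median of 43, against 23 in the other lncRNA genes, 17 in the other noncoding hosts and 184 in the coding hosts. These isoforms had a median of 5.5 exons, against 2, 3 and 7 in the same order. A model with fewer exons has fewer junctions that can lie beyond a stop, and the shares above were not adjusted for this. The frames printed, with ATG and stop codon in capitals, are those of the most abundant host (SNHG5), of the host with the largest UPF1 response (SNHG7) and of the host with the shortest frame among these isoforms (SNHG15). SNHG5-202 lies at chr6:85677082-85678748 (minus strand) with 2 junctions beyond 50 bases, SNHG7-202 at chr9:136724658-136728184 (minus strand) with 1 and SNHG15-203 at chr7:44983019-44986834 (minus strand) with 1.
SNHG5-202 frame: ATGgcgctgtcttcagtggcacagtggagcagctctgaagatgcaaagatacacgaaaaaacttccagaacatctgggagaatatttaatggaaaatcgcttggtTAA
SNHG7-202 frame: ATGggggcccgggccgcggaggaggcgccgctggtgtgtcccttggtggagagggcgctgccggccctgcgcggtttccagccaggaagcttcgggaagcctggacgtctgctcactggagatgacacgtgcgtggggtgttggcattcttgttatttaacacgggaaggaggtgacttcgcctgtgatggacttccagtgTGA
SNHG15-203 frame: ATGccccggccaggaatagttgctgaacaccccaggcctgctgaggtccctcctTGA

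**Figure D1:**
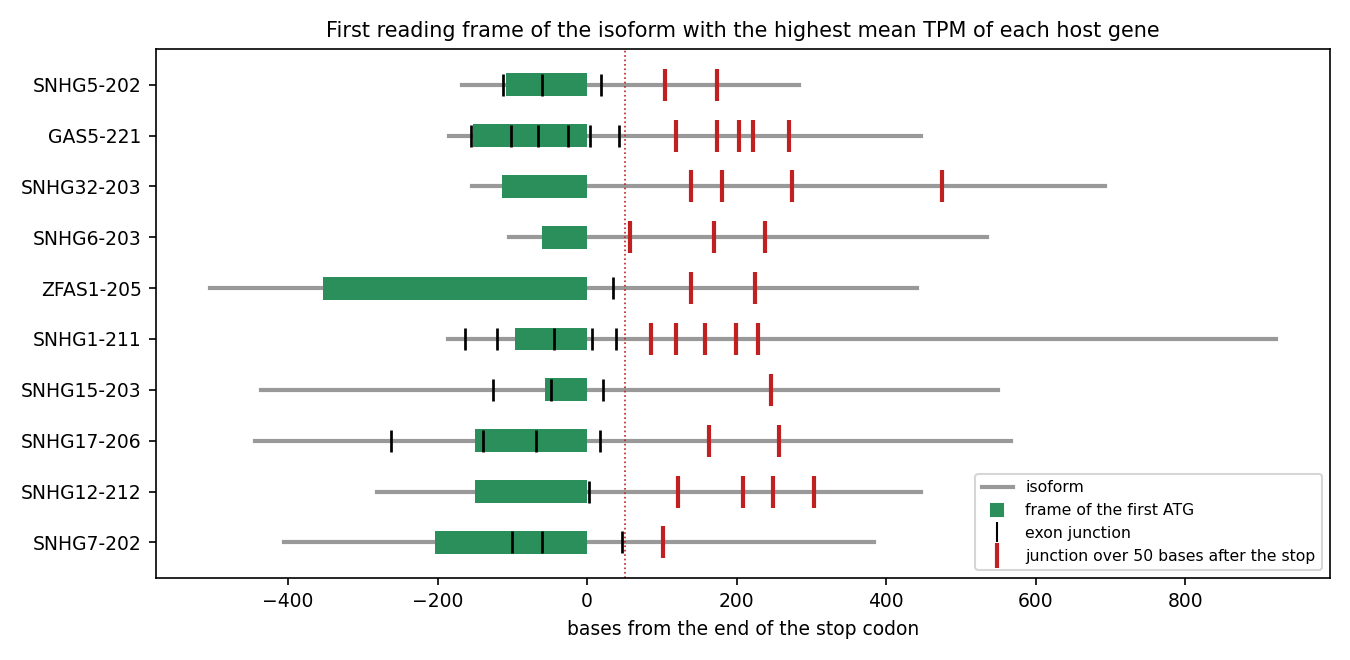
Models of the isoform of each gene with the highest mean TPM over the 9 libraries, drawn to scale in bases from the end of the stop codon of the first frame (horizontal axis), with the frame as a green bar, exon junctions as ticks and junctions over 50 bases downstream of the stop in red. Every one of the 10 isoforms has 1 to 5 red junctions, and the dotted line marks 50 bases.

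Many coding snoRNA hosts begin with a cytosine followed by pyrimidines, the 5' terminal oligopyrimidine tract that links an mRNA to growth-dependent translation. With the motif taken as a C in the first position followed by 4 bases that were each C or T, on the transcribed strand of the model, 2 of the 10 isoforms held it, GAS5-221 and SNHG12-212. The share was 1 of 16 for the other noncoding hosts, 13 of 35 for coding hosts and 2.42% for the other lncRNA genes. The first 30 bases of the longer run, that of SNHG12-212, are shown with the pyrimidines in capitals. A missing match says only that the annotated start does not carry these letters.
SNHG12-212 start: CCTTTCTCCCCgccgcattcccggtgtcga

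Library totals ran from 73478797 to 103625443 expected counts. The targets fell as labelled: DHX34 had a log2 fold change of -1.23 in its knockdown and UPF1 of -1.31 in its own, with the knockdown libraries below all SCR libraries. All 7 K562 markers were expressed, and 5 of them fell in the UPF1 knockdown, among them HBG2 (-0.96), HBZ (-0.91) and GATA1 (-0.29). Of 7 markers of other cell types, MS4A1 and KRT5 were at 0 in all libraries, and the collagen gene COL1A1 was at 5.43, 4.53 and 4.52 CPM (a gene's count relative to the TMM-adjusted size of its library) in the DHX34 knockdown against 0.598, 0.741 and 0.761 in SCR. DHX34 knockdown replicate 3 stood apart in RNA from retained introns: isoforms of that annotation, outside the 10 genes, held 4.75% of its TPM, against 4.39% and 4.38% in the other 2 DHX34 knockdown libraries, 4.17% to 4.35% in SCR and 4.70% to 4.80% in the UPF1 knockdown. Results that rest on that library are given with and without it.

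Per length, the 10 genes differed widely in the control cells. In TPM, the abundance of a transcript relative to all others after correction for its length, SNHG5 led the SCR libraries with 2379 ± 35.2 (SD, n = 3). GAS5 followed at 729 ± 18.5, then SNHG32 at 425 ± 8.98, SNHG6 at 422 ± 2.05, ZFAS1 at 286 ± 10.7 and SNHG1 at 219 ± 14.8 TPM. The remaining 4 were lower, SNHG15 at 50.6 ± 2.52, SNHG17 at 45.8 ± 3.54, SNHG12 at 34.9 ± 5.38 and SNHG7 at 28.9 ± 2.65 TPM. Neighbours in this order were separated in all SCR libraries except SNHG32 and SNHG6, SNHG15 and SNHG17, and SNHG12 and SNHG7, whose ranges overlapped. The 6 more abundant genes are the ones whose introns hold mostly box C/D snoRNAs in RefSeq, and the 4 less abundant ones hold mostly box H/ACA snoRNAs, so abundance and snoRNA class cannot be told apart here. The 10 genes held 0.459% to 0.467% of all TPM in SCR, 0.359% to 0.370% after DHX34 depletion and 0.935% to 0.968% after UPF1 depletion. In bulk RNA, fewer cells that express a gene and less of its RNA per cell cannot be told apart.

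All 10 genes rose in the UPF1 knockdown, by 1.47-fold in SNHG6 to 4.11-fold in SNHG7, with a median log2 fold change of 1.00. In the DHX34 knockdown none rose and 5 fell, GAS5, ZFAS1, SNHG5, SNHG6 and SNHG32. SNHG32 fell by 24.6%, the least of them, and SNHG6 fell by 32.8%, the most. Genes were tested by the quasi-likelihood test of edgeR across all genes and called where the p-value adjusted by Benjamini-Hochberg was 0.005 or less. Of all genes tested against SCR, 12.4% were called up and 12.9% down in the UPF1 knockdown, and 5.54% up and 4.86% down in the DHX34 knockdown. The median log2 fold change over all genes tested was 0.02 in both comparisons, and over lncRNA genes it was 0.09 and 0.03. The 3 SCR libraries serve as controls in both, so the comparisons are not independent of each other. The 3 UPF1 knockdown libraries lay above all SCR libraries for 10 of the 10 genes. Of 17184 genes tested 4618 lay above in this way, and 50.5% were separate in either direction. The 3 DHX34 knockdown libraries lay below all SCR libraries for 6 of the 10, the 5 called and SNHG15, and above them for none. Of 17004 genes tested 3387 lay below and 3672 above, and 41.5% were separate in either direction.

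**Figure D2:**
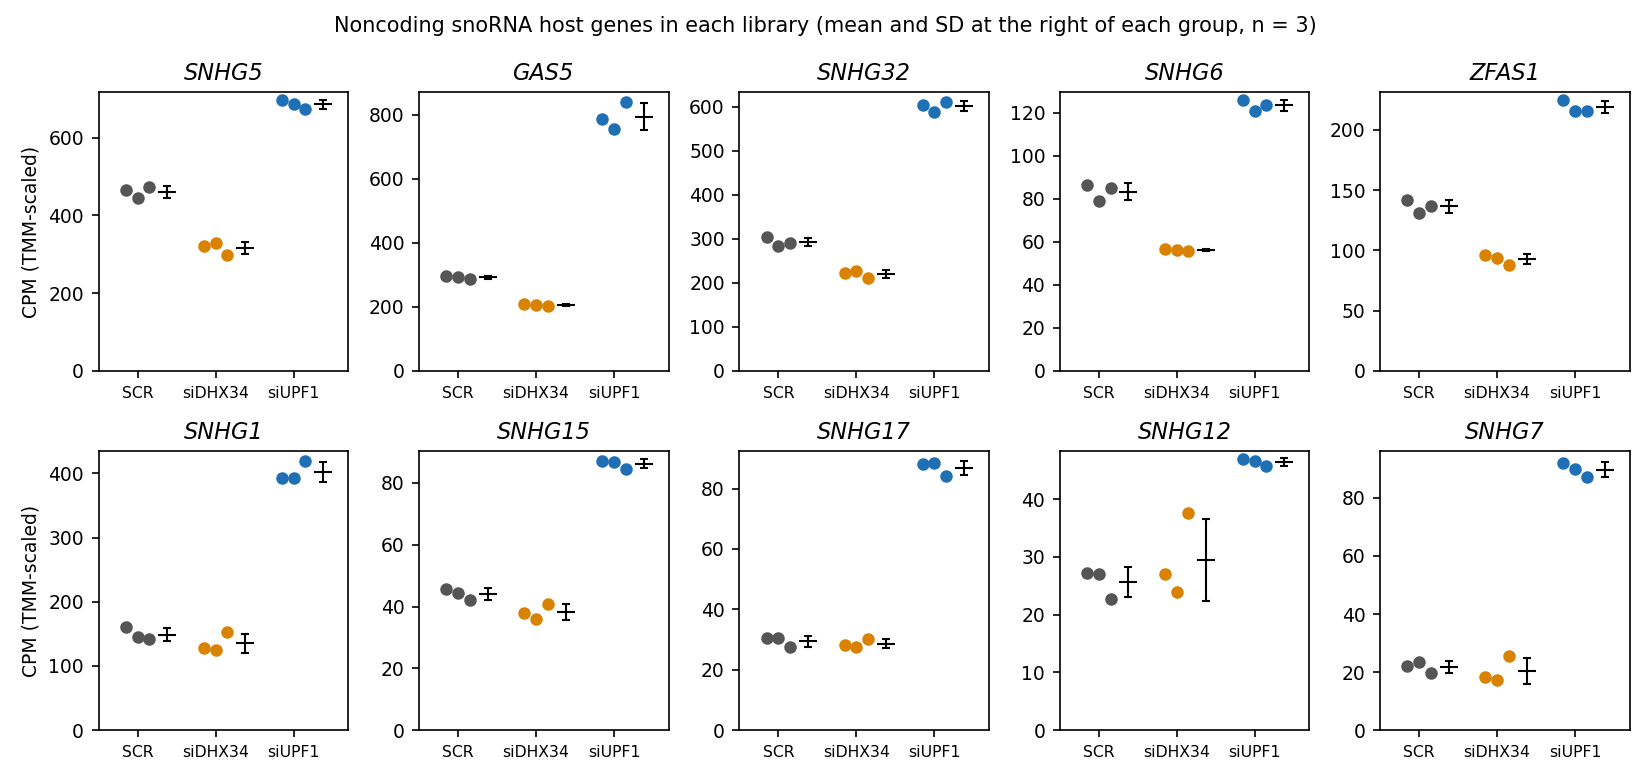
CPM of each gene in each library (points), with the mean and SD of each group of 3 beside them, and one vertical axis per gene that starts at 0. The 3 UPF1 knockdown libraries (blue) sit above all others in every panel, and the DHX34 knockdown libraries (orange) sit below SCR (grey) in SNHG5, GAS5, SNHG32, SNHG6, ZFAS1 and SNHG15.

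Among the box C/D hosts, GAS5, named for its rise in growth-arrested cells and host of 10 C/D snoRNAs and 1 H/ACA snoRNA, was at 296, 292 and 288 CPM in SCR cells, 209, 205 and 202 after DHX34 depletion and 787, 755 and 839.5 after UPF1 depletion. The 3 groups did not overlap in any pair. Its log2 fold change was 1.43 (SE 0.037, adjusted p 3.58e-10) in the UPF1 knockdown and -0.51 (SE 0.035, adjusted p 6.49e-06) in the DHX34 knockdown. SNHG1, with 8 named C/D snoRNAs and transcribed next to SLC3A2, was at 160.3, 144 and 142 CPM in SCR cells, 128, 126 and 152 after DHX34 depletion and 393, 393 and 419.6 after UPF1 depletion. Its UPF1 knockdown libraries stood well above the rest, while DHX34 knockdown replicate 3 lay inside the SCR range and the other 2 lay below it. The log2 fold change was 1.43 (SE 0.046, adjusted p 1.39e-09) in the UPF1 knockdown and -0.14 (SE 0.07, adjusted p 0.17) in the DHX34 knockdown, and -0.23 in the latter without replicate 3.

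SNHG32, which lies in the major histocompatibility complex and hosts SNORD48 and SNORD52, was at 303, 285 and 289 CPM in SCR cells, 223, 228 and 211 after DHX34 depletion and 604, 589 and 611 after UPF1 depletion. Its groups did not overlap in any pair, with log2 fold changes of 1.03 (SE 0.031, adjusted p 8.65e-10) in the UPF1 knockdown and -0.41 (SE 0.043, adjusted p 9.43e-05) in the DHX34 knockdown. Copies of this region on alternate sequences and an overlapping gene model on the same strand make its counts uncertain. ZFAS1, which starts head to head with ZNFX1 and hosts the SNORD12 family, was at 141, 131 and 137 CPM in SCR cells, 96.4, 93.8 and 87.9 after DHX34 depletion and 224, 215 and 216 after UPF1 depletion. It fell in the DHX34 knockdown, with a log2 fold change of -0.56 (SE 0.047, adjusted p 2.31e-05), and rose by 0.67 (SE 0.034, adjusted p 5.73e-08) in the UPF1 knockdown.

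SNHG5, host of SNORD50A and SNORD50B, was at 464, 444 and 473 CPM in SCR cells, 320.2, 328 and 299 after DHX34 depletion and 696, 688 and 674 after UPF1 depletion. SNHG6, host of SNORD87, was at 86.4, 78.9 and 85.1 CPM in SCR cells, 56.7, 56.2 and 55.7 after DHX34 depletion and 126, 121 and 124 after UPF1 depletion. The counts of SNHG5 are uncertain as well, since 2 gene models on the same strand overlap its exons. In SNHG5 and SNHG6 the 3 groups formed separate bands, with the DHX34 knockdown lowest and the UPF1 knockdown highest. They had the smallest responses of the 10 to the UPF1 knockdown, 0.57 (SE 0.029, adjusted p 5.47e-08) for SNHG5 and 0.56 (SE 0.038, adjusted p 5.62e-07) for SNHG6 on the log2 scale. In the DHX34 knockdown they fell by a similar amount, -0.55 (SE 0.045, adjusted p 2.09e-05) for SNHG5 and -0.57 (SE 0.043, adjusted p 1.14e-05) for SNHG6.

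None of the 4 genes with mostly H/ACA snoRNAs was called in the DHX34 knockdown. SNHG7, host of SNORA17A and SNORA17B, was at 21.96, 23.6 and 19.7 CPM in SCR cells, 18.2, 17.4 and 25.7 after DHX34 depletion and 92.1, 90.1 and 87.1 after UPF1 depletion. Its UPF1 knockdown libraries were far above the rest, and DHX34 knockdown replicate 3 was above all SCR libraries while the other 2 were below them. The log2 fold change was 2.04 (SE 0.059, adjusted p 6.48e-10) in the UPF1 knockdown and -0.09 (SE 0.13, adjusted p 0.644) in the DHX34 knockdown, and -0.28 (adjusted p 0.0225) in the latter without replicate 3. SNHG17, with the SNORA71 family, was at 30.5, 30.5 and 27.4 CPM in SCR cells, 28.2, 27.5 and 30.3 after DHX34 depletion and 88.04, 88.5 and 84.3 after UPF1 depletion. Its SCR and DHX34 knockdown libraries overlapped, with a log2 fold change of -0.04 (SE 0.059, adjusted p 0.681), and the UPF1 knockdown raised it by 1.56 (SE 0.048, adjusted p 9.94e-10).

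SNHG15, host of SNORA9, was at 45.7, 44.4 and 42.1 CPM in SCR cells, 37.9, 35.9 and 40.8 after DHX34 depletion and 87.2, 86.9 and 84.6 after UPF1 depletion. All 3 DHX34 knockdown libraries were lower than all 3 SCR libraries, but the difference of -0.21 (SE 0.054, adjusted p 0.0161) missed the threshold in edgeR and passed it in DESeq2, whose adjusted p was 0.00261. Over all alternatives its adjusted p ran from 0.000987 to 0.153. The UPF1 knockdown raised SNHG15 by 0.96 (SE 0.04, adjusted p 9.60e-09). SNHG12, which hosts SNORD99 and 3 H/ACA snoRNAs, was at 27.2, 27.1 and 22.6 CPM in SCR cells, 27.02, 23.9 and 37.5 after DHX34 depletion and 46.9, 46.6 and 45.7 after UPF1 depletion. The UPF1 knockdown libraries agreed closely with each other and lay above the rest, with a log2 fold change of 0.85 (SE 0.064, adjusted p 1.17e-06). DHX34 knockdown replicate 3 was the highest of the 6 other libraries, the difference from SCR was 0.20 (SE 0.14, adjusted p 0.323), and it was -0.0016 without that library.

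The 5 genes that fell in the DHX34 knockdown were thus 5 of the 6 genes with mostly C/D snoRNAs and 0 of the 4 with mostly H/ACA snoRNAs. The log2 fold changes ran from -0.57 to -0.14 in the first class (median -0.53) and from -0.21 to 0.20 in the second (median -0.07). These ranges overlapped, as SNHG1 (-0.14) of the first class lay above SNHG15 (-0.21) of the second. They include DHX34 knockdown replicate 3, and the values of SNHG1, SNHG7 and SNHG12 without it are given above. In the UPF1 knockdown the 2 classes overlapped as well, at 0.56 to 1.43 and 0.85 to 2.04. The classes also differ in abundance, so snoRNA class and abundance cannot be told apart. The difference between the classes was seen after the values and was not tested. No gene of the 10 was called up in the DHX34 knockdown, and edgeR gave 0 up and 6 down at an unadjusted p under 0.05, while DESeq2 called 0 up and 6 down. Over all 17004 genes, edgeR gave 3210 up and 3021 down at that unadjusted p. Fold changes were lower for genes of short transcripts: across all genes tested the Spearman correlation of the log2 fold change with length was 0.236 in the DHX34 and 0.153 in the UPF1 knockdown, and the median effective length of the 10 was 636 bases against 1797 over all genes. With the length trend taken out of each library the 5 falls remained called, at -0.40 for GAS5, -0.45 for ZFAS1, -0.46 for SNHG5, -0.48 for SNHG6 and -0.31 for SNHG32. The log2 fold change of a gene was higher on the TPM than on the count scale by a median of 0.147 in the DHX34 and 0.199 in the UPF1 knockdown. The 5 falls remained called against that upward shift, and the 10 rises, which it favours, remained called too.

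The knockdowns were then compared with each other, without the shared controls, to ask whether the 10 genes differed between them. All 10 were higher in the UPF1 than in the DHX34 knockdown, where 9.89% of all genes were called higher and 7.47% lower. The groups did not overlap for 10 of the 10, against 45.7% of all genes. The difference was largest for SNHG7, 2.15 (SE 0.12, adjusted p 2.69e-07), and GAS5, 1.96 (SE 0.041, adjusted p 1.94e-09), on the log2 scale. SNHG17 (1.61), SNHG1 (1.58), SNHG32 (1.46), ZFAS1 (1.25), SNHG15 (1.19), SNHG6 (1.15) and SNHG5 (1.13) followed. SNHG12 had the smallest difference, 0.67 (SE 0.13, adjusted p 0.00208). That call was lost without DHX34 knockdown replicate 1 (adjusted p 0.00977) and without UPF1 knockdown replicate 1 (0.0129), 2 (0.0108) or 3 (0.00973), and without DHX34 knockdown replicate 3 its log2 difference was 0.86. The median over the 10 was 1.35, against 0.01 over all genes and 0.06 over lncRNA genes tested.

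**Figure D3:**
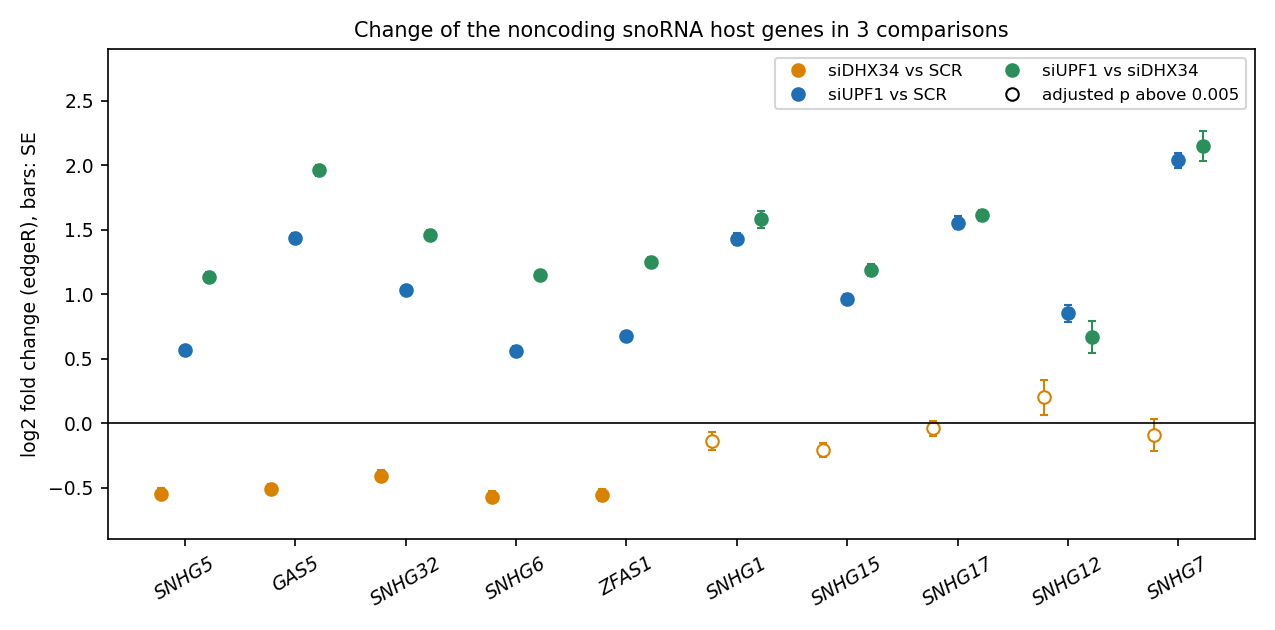
Log2 fold changes from edgeR with their standard errors (bars) for each of the 10 genes, in the order of their SCR level, for the DHX34 knockdown against SCR (orange), the UPF1 knockdown against SCR (blue) and the UPF1 against the DHX34 knockdown (green). Filled points have an adjusted p of at most 0.005: all blue and green points lie above 0, and the 5 filled orange points lie between -0.57 and -0.41.

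Other noncoding snoRNA hosts were called in both directions. Of 18 other noncoding hosts that could be tested, 5 were higher and 4 lower after UPF1 depletion (median log2 fold change 0.01). Those that rose were EPB41L4A-AS1 (1.35), SNHG8 (0.93), SNHG11 (0.81), SNHG20 (0.63) and SNHG29 (0.39), and those that fell were SNHG30 (-0.31), DANCR (-0.30), SNHG3 (-0.26) and SNHG16 (-0.21). On the TPM scale, tested with limma on log2(TPM + 0.5), the 5 rises remained called and none of the 4 falls did. SNHG16 turned to 0.08 there, with all 3 UPF1 knockdown libraries above SCR, and SNHG30 (-0.09), DANCR (-0.08) and SNHG3 (-0.13) stayed below 0. A first frame with a junction over 50 bases downstream was present in 3 of the 5 that rose and in 3 of the 4 that fell. In the DHX34 knockdown 2 of 18 fell, SNHG29 (-0.47) and SNHG16 (-0.31), and none rose, with 0 up and 7 down at an unadjusted p under 0.05 and 0 up and 3 down in DESeq2. Of the 2, SNHG29 kept its call on the TPM scale. Against the DHX34 knockdown the same 5 genes were higher and SNHG30 was lower (-0.34) in the UPF1 knockdown. On the TPM scale SNHG30 lost that call (adjusted p 0.00594 in limma).

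Coding hosts, most of them genes of ribosomal proteins and translation factors, were mostly lower in both knockdowns on the count scale. Of 35 tested, 27 fell and 2 rose in the UPF1 knockdown (median -0.27), and 17 fell and 0 rose in the DHX34 knockdown (median -0.26), none of them higher at an unadjusted p under 0.05 or called higher by DESeq2. On the TPM scale, tested with limma, 8 were down and 6 up in the UPF1 knockdown (median -0.05) and 6 were down and 0 up in the DHX34 knockdown (median -0.08). Of the 27 that fell in the UPF1 knockdown 5 turned direction on that scale, RPS12, NCL, RPL21, RPL13A and EEF2, with values from 0.01 in NCL to 0.11 in EEF2, and RACK1 went from -0.28 to -0.00021. With the length trend removed 25 fell and 2 rose in the UPF1 knockdown and 11 fell and 0 rose in the DHX34 knockdown. The 17 that fell in the DHX34 knockdown became 27 in DESeq2 and 6 with a replicate block, and 5 and 7 without SCR replicate 1 or 3 and 9 without DHX34 knockdown replicate 1. RPS20 fell in both, with log2 fold changes of -0.45 for DHX34 and -0.38 for UPF1. RPL27A (-0.36) and RPS12 (-0.35) fell in the DHX34 knockdown and RPL13 (-0.39) in the UPF1 knockdown. TAF1D, a subunit of the RNA polymerase I factor SL1 and host to several snoRNAs, had the largest rise, 0.61 in the UPF1 knockdown. In the direct comparison 5 of the 35 were higher in the UPF1 knockdown, led by TAF1D (0.67), EIF4A2 (0.45) and HSPA9 (0.22), and 0 were lower. At an unadjusted p under 0.05 2 were lower, DESeq2 called 1 lower, and 10 were called lower without DHX34 knockdown replicate 3. The median DHX34 response of the 10 noncoding genes was -0.31, and whether it differs from that of the coding hosts was not tested.

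The files list 134 isoforms of the 10 genes, and these were grouped by what their models keep. Of them 56 had no whole snoRNA inside an exon and no retained intron annotation, and these are called spliced. Another 26 (in 9 genes) had a whole snoRNA inside an exon, and 4 without one were annotated as retained introns. Introns were not checked one by one, so a model called spliced may still keep part of an intron. The other 48 had GENCODE models that differ by over 50 bases from the length in the files and were left unsorted. Salmon divides reads between overlapping isoforms, so the value of a single isoform is an estimate that depends on all its relatives. The excised snoRNAs themselves are not measured by poly(A) libraries, and 24 of 28 snoRNA entries in the files had 0 counts in every library.

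Most of the sorted isoforms that rose without UPF1 were spliced. In edgeR across all isoforms 29 of 122 isoforms tested rose and 0 fell after UPF1 depletion, with at least 1 called in each of the 10 genes, where 0.97% of all isoforms were called up and 1.62% down. For the 0, 3 isoforms were lower at an unadjusted p under 0.05, where 6976 of all 62497 were, and DESeq2 also called 0. By kind, 20 of 49 spliced isoforms tested rose (median log2 fold change 0.74) against 1 of 26 with a snoRNA in an exon (median 0.21), and 8 of the 43 unsorted ones rose (median 0.44). The kinds differed in abundance, and a low count makes a call harder. In SCR the leading spliced isoform had a higher TPM than the leading one with a snoRNA in every gene with both but SNHG12. With all models sorted regardless of length, an alternative chosen after seeing the data, the counts were 28 of 67 and 1 of 49. The count of isoforms that rose was lower when a library was left out: the 29 became 10, 16 and 12 without SCR replicate 1, 2 or 3 and 8, 10 and 10 without UPF1 knockdown replicate 1, 2 or 3. With a replicate block, for libraries whose numbers were not found to pair, it was 0.

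The largest shift in share was that of an SNHG7 isoform. SNHG7-202, the spliced isoform printed above, was at 21.2, 22.2 and 17.3 TPM in SCR cells, 15.8, 17.3 and 21.7 after DHX34 depletion and 161, 155 and 153 after UPF1 depletion, a log2 fold change of 2.71 (adjusted p 1.54e-04). SNHG7-204, which keeps the intron with SNORA17A, was at 3.47, 4.00 and 3.00 TPM in SCR cells, 3.57, 3.16 and 6.04 after DHX34 depletion and 4.12, 3.89 and 3.78 after UPF1 depletion, with a log2 fold change of -0.08 (adjusted p 0.783). The UPF1 knockdown libraries were thus far above SCR for the spliced form and within the SCR range for 2 of 3 libraries or just above it for the form with the intron. The share of SNHG7-202 in the TPM of the gene rose from 69.9% ± 3.5 to 94.95% ± 0.5 (SD, n = 3; adjusted p 0.00123, limma on the log ratio of the isoform to the rest of its gene), and that of SNHG7-204 fell from 12.02% ± 0.64 to 2.38% ± 0.051 (adjusted p 0.00114). The unsorted SNHG7-203, at -0.88 on the log2 scale, lost share as well, from 15.1% ± 3.3 to 1.69% ± 0.46. SNHG7-204 keeps 1 intron whole and also runs into the next, which holds SNORA17B. The intron kept whole lies at chr9:136726417-136727045 (GRCh38, minus strand), is 629 bases long, and its donor and acceptor sites are shown with 20 exonic bases in capitals and 20 intronic bases in lower case.
SNHG7 intron 2 donor: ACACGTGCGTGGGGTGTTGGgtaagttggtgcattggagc
SNHG7 intron 2 acceptor: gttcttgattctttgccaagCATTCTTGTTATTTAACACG

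In GAS5 the spliced isoform GAS5-221 was at 272, 285 and 260.4 TPM in SCR cells, 186, 198 and 177 after DHX34 depletion and 1117, 1082 and 1180.4 after UPF1 depletion, 1.80 (adjusted p 7.36e-05) on the log2 scale, while GAS5-201, with a snoRNA in an exon, was at 19.2, 19.7 and 19.4 TPM in SCR cells, 18.03, 16.1 and 21.8 after DHX34 depletion and 25.6, 20.5 and 22.97 after UPF1 depletion, -0.01 (adjusted p 0.97). The value of GAS5-201 is on counts, and in TPM its 3 UPF1 knockdown libraries lay above all SCR libraries. The spliced GAS5-218 (1.43), GAS5-209 (1.54) and GAS5-219 (1.42) and the unsorted GAS5-202 (1.42) rose past the threshold, as GAS5-221 did. In SNHG1, 7 isoforms rose, with the largest fold changes in the unsorted SNHG1-217 (3.55) and the spliced SNHG1-205 (2.59). SNHG1-211, its most abundant isoform, was at 56.2, 50.9 and 47.95 TPM in SCR cells, 48.1, 53.7 and 68.2 after DHX34 depletion and 204, 191 and 206 after UPF1 depletion. SNHG1-209, with a snoRNA in an exon, had a log2 fold change of -0.06, whereas SNHG1-213, which keeps SNORD25 in an exon, rose by 1.98 (adjusted p 0.00227) and was the one isoform of its kind to pass. The other SNHG1 isoforms that rose were SNHG1-211 (1.71), SNHG1-219 (1.499), SNHG1-218 (1.35) and SNHG1-223 (0.82).

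SNHG32 and SNHG15 each had a spliced isoform that rose and an isoform with a snoRNA in an exon that was not called. SNHG32-203 was at 179, 178 and 166 TPM in SCR cells, 143, 146 and 143 after DHX34 depletion and 499, 490.1 and 498 after UPF1 depletion, and SNHG32-207, with a snoRNA in an exon, was at 12.6, 12.2 and 13.1 TPM in SCR cells, 14.4, 13.4 and 17.4 after DHX34 depletion and 14.9, 14.3 and 14.97 after UPF1 depletion. The log2 fold change in the UPF1 knockdown was 1.26 (adjusted p 8.39e-05) for the first and -0.02 (adjusted p 0.933) for the second, and SNHG32-204 (0.76) and SNHG32-206 (1.87) rose as well. These values are on counts, and in TPM the UPF1 knockdown libraries of SNHG32-207 lay above all SCR libraries. SNHG15-203 went from a mean of 32.6 to 97.7 TPM, 1.33 (adjusted p 2.67e-04), and its share rose from 64.3% ± 0.59 to 80.8% ± 0.46 (SD, n = 3). The spliced SNHG15-210 stayed near its SCR level (0.13) and lost share, from 14.9% ± 0.87 to 8.12% ± 0.5, and SNHG15-202, with a snoRNA in an exon, was at -0.02. The unsorted SNHG15-207 was at 0.19.

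SNHG12 and SNHG17 were less sharply divided. SNHG12-212 rose by 1.38 (adjusted p 0.00196), while SNHG12-205, which has a snoRNA in an exon and was the most abundant isoform in SCR, was at 11.8, 11.7 and 9.73 TPM in SCR cells, 13.7, 9.87 and 19.8 after DHX34 depletion and 15.8, 17.4 and 16.7 after UPF1 depletion, 0.34 (adjusted p 0.0897). All 3 UPF1 knockdown libraries were above SCR for SNHG12-205 and inside the wide range of the DHX34 knockdown, whose replicate 3 was the highest of the 9. SNHG17-206 rose by 2.01 (adjusted p 6.17e-04), and so did the unsorted SNHG17-208 (1.73) and SNHG17-201 (1.61). SNHG17-202, with a snoRNA in an exon, missed the threshold at 0.95 (adjusted p 0.0056), and SNHG17-207, which keeps an intron without one, was at -0.23 and lost share. The unsorted SNHG12-202 (1.96), SNHG12-207 (1.75) and SNHG17-204 (1.11) did not pass.

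ZFAS1, SNHG5 and SNHG6 were each dominated by spliced or unsorted isoforms. ZFAS1-205 (0.55), ZFAS1-204 (0.74) and the unsorted ZFAS1-202 (0.80) rose together, and no isoform of ZFAS1 changed its share. ZFAS1-209 (0.78) and ZFAS1-201 (0.54) did not pass, and ZFAS1-210, with a snoRNA in an exon, was at -0.20. SNHG5-202 made up 95.7% ± 0.12 of SNHG5 in SCR and rose by 0.41 (adjusted p 0.00157), and the unsorted SNHG5-201 rose by 2.02 (adjusted p 7.46e-05), from a mean of 20.6 to 99.1 TPM. SNHG5-219 (0.94) and SNHG5-206 (0.42) passed as well. SNHG6 was split between SNHG6-203, which rose from 42.5% ± 1.5 to 58.6% ± 1.1 of the gene and by 0.69 (adjusted p 0.00135), and the shorter, unsorted SNHG6-205, which had a log2 fold change of -0.24 (adjusted p 0.0684) and went from 51.95% ± 1.6 to 36.8% ± 1.3. SNHG6-204, which keeps SNORD87, was at -0.27.

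**Figure D4:**
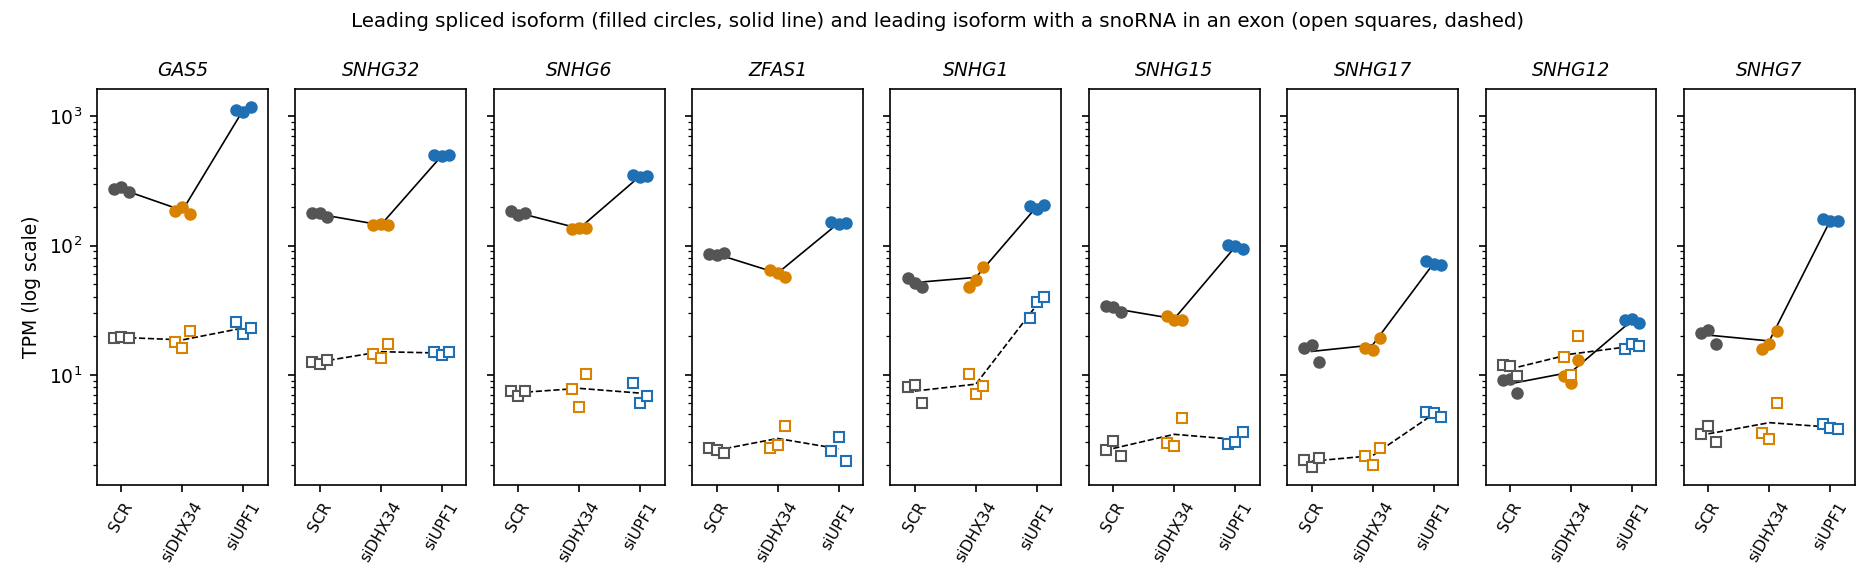
TPM per library (log scale) of the spliced isoform with the highest mean over the 9 libraries (filled circles, means joined by a solid line) and the isoform with a snoRNA in an exon chosen likewise (open squares, dashed line) of the 9 genes that have both kinds. The filled circles rise in the UPF1 knockdown (blue) in all 9 panels. By edgeR on counts, the isoforms drawn as squares rose past the threshold in SNHG1 and missed it in SNHG17 (log2 0.95) and SNHG12 (0.34). In TPM, as drawn, the squares of GAS5 and SNHG32 in the UPF1 knockdown also lie above all SCR libraries, and neither was called.

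Shares within the genes moved in 18 of 122 isoforms in the UPF1 knockdown, called at an adjusted p of at most 0.05, where 1.46% of all isoform shares were called. Of these 9 rose and 9 fell. Among spliced isoforms 7 rose and 2 fell, and among those with a snoRNA in an exon 0 rose and 4 fell: GAS5-201, GAS5-210, SNHG1-209 and SNHG7-204. Since shares of a gene add to 100%, falls and rises are not separate events. The count was 7, 7 and 8 without SCR replicate 1, 2 or 3 and 7 in each fit without a UPF1 knockdown library, and 0 with a replicate block.

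TPM was also summed by kind within each gene, with unsorted isoforms left out. The sum was that of a single isoform for the spliced kind in 1 of 10 genes (SNHG17) and for isoforms with a snoRNA in an exon in 6 of 9, ZFAS1, SNHG6, SNHG7, SNHG15, SNHG17 and SNHG32. The UPF1 knockdown libraries lay above all SCR libraries for the spliced sum in 10 of the 10 genes, with ratios of the means from 1.57 in SNHG5 to 7.48 in SNHG7 (median 2.89). For the sum of isoforms with a snoRNA in an exon they did so in 5 of 9 genes, with ratios from 0.992 in SNHG6 to 2.68 in SNHG1 (median 1.18). Among all genes tested 4618 of 17184 lay above all SCR libraries, and no such share was taken for sums by kind. In GAS5 the spliced sum was 3.66 times and the other sum 1.37 times its SCR mean, and in SNHG15 the values were 2.59 and 1.18. The ratio of the spliced sum was the higher of the 2 in all 9 genes that have both.

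The DHX34 knockdown had no isoform past the threshold. In edgeR 0 of 117 isoforms rose and 0 fell, where 0.0348% and 0.0116% of all isoforms were called up and down, and 1 was higher and 31 were lower at an unadjusted p under 0.05. Of all 60416 isoforms 4499 were higher and 4709 lower at that unadjusted p. DESeq2 called 16 of the isoforms of these genes down and 0 up. The medians by kind were -0.43 over 47 spliced isoforms and 0.03 over 25 with a snoRNA in an exon. The lowest adjusted p of the leading isoforms belonged to GAS5-221, -0.71 (adjusted p 0.0106), to SNHG6-203, -0.60 (adjusted p 0.011), to SNHG5-202, -0.58 (adjusted p 0.0112), and to GAS5-218, -0.96 (adjusted p 0.0112), for each of which all DHX34 knockdown libraries lay below all SCR libraries. No share was called, where 0.58% of all shares were, with 11 higher and 3 lower at an unadjusted p under 0.05 and 0 called by diffSpliceDGE, and 1 share was called without SCR replicate 3. Of all 54312 shares tested 2934 were higher and 2408 lower at that unadjusted p.

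Summed by kind, the DHX34 knockdown libraries lay below all SCR libraries for the spliced sum in 6 of 10 genes, GAS5, ZFAS1, SNHG5, SNHG6, SNHG15 and SNHG32, with a median ratio of 0.842 over the 10. Among all 17004 genes tested 3387 lay below and 3672 above all SCR libraries, and no such share was taken for sums by kind. The sum of isoforms with a snoRNA in an exon had a median ratio of 1.22 over 9 genes, from 1.01 to 1.32, and lay above all SCR libraries in ZFAS1, SNHG1 and SNHG32. DHX34 knockdown replicate 3, the library with more RNA from retained introns in other genes, was the highest of its group for that sum in 9 of 9 genes. Without it, an alternative chosen after seeing the data, the median ratio was 1.06, from 0.917 to 1.11, and that of the spliced sum was 0.830. ZFAS1, SNHG1 and SNHG32 still lay above all SCR libraries for the sum with a snoRNA in an exon. The spliced sums of SNHG1 and SNHG7 then also lay below SCR, though fewer libraries separate more readily.

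**Figure D5:**
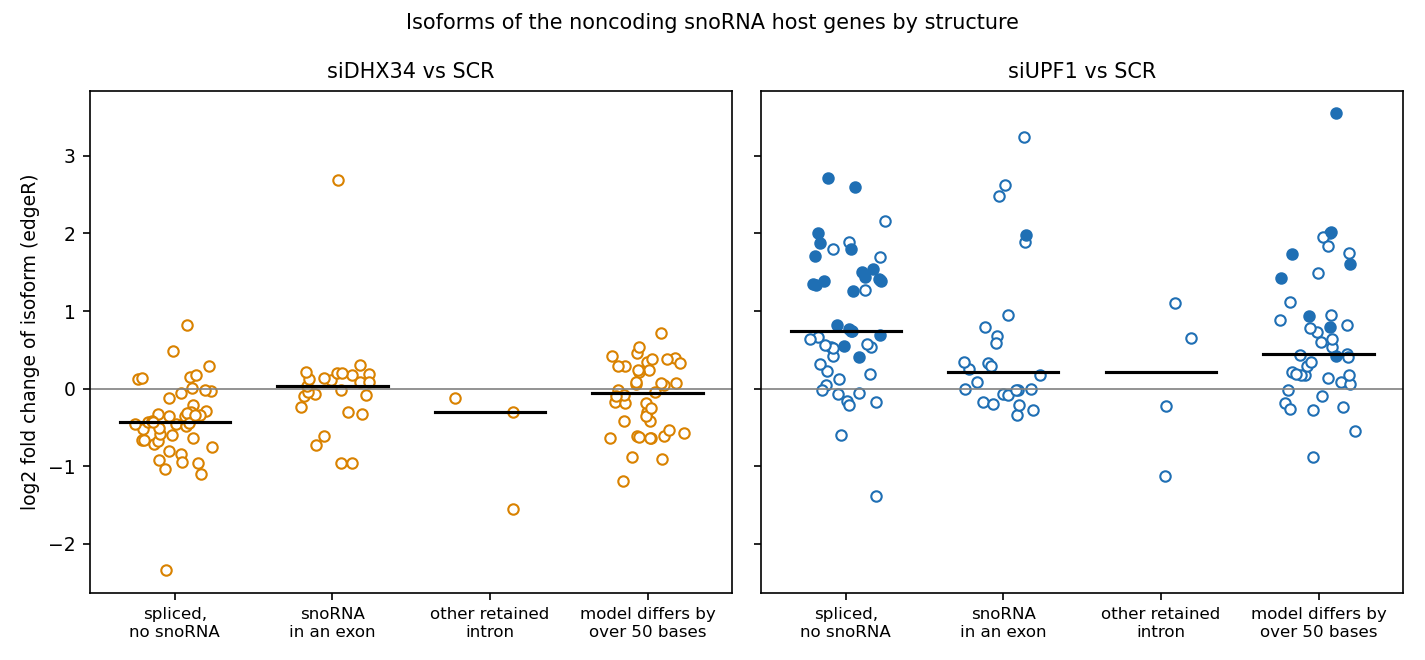
Log2 fold change of each isoform tested (points, filled where the adjusted p was at most 0.005) by what its model keeps, in the DHX34 knockdown (left) and the UPF1 knockdown (right) against SCR, with the median of each kind as a bar. In the UPF1 knockdown the filled points are 20 spliced isoforms, 1 with a snoRNA in an exon and 8 unsorted, and in the DHX34 knockdown no point is filled and the spliced median lies at -0.43.

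Between the knockdowns, 31 of 120 isoforms were higher and 0 lower in the UPF1 knockdown, where 0.732% of all isoforms were called higher and 0.32% lower. For the 0, no isoform was lower at an unadjusted p under 0.05, where 5169 of all 64325 were, and DESeq2 called 0. They comprised 21 of 47 spliced isoforms, 2 of 26 with a snoRNA in an exon, SNHG1-213 (1.98) and GAS5-228 (1.31), and 8 of 43 unsorted ones, and came from every gene but SNHG12. The largest differences were those of SNHG1-217 (4.22), SNHG1-205 (3.56) and SNHG7-202 (3.05). ZFAS1-209 (1.43), ZFAS1-201 (0.92), SNHG5-209 (1.70) and SNHG32-208 (1.76) passed here and had missed the threshold against SCR. Shares differed for 17 isoforms, where 0.891% of all shares were called. Of the spliced ones 6 were higher and 0 lower, and of those with a snoRNA in an exon 0 were higher and 6 lower, the 4 above that fell against SCR and GAS5-204 and SNHG32-207. The unsorted GAS5-215 and SNHG1-216 had lower shares too. The 31 became 17, 15 and 18 without DHX34 knockdown replicate 1, 2 or 3 and 10, 11 and 10 without UPF1 knockdown replicate 1, 2 or 3, and the 17 became 5, 5 and 6 and then 3 in each. With a replicate block both were 0.

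Outside the 10 genes, those whose log2 CPM over the 9 libraries was most like the mean of the 10 standardized profiles were PSMC3IP (Pearson's r 0.997), PYDC2-AS1 (0.997), LINC02404 (0.996), CHASERR (0.995) and ATF3 (0.995), among 10053 genes that averaged 5 CPM or more. The 9 points fall into 3 groups, so r mostly reflects the order of the group means, low in the DHX34 and high in the UPF1 knockdown. ATF3, a transcription factor of the stress response, was at 16.6 ± 1.00 CPM in SCR cells, 13.8 ± 0.296 after DHX34 depletion and 34.2 ± 0.534 after UPF1 depletion (SD, n = 3). CHASERR, a lncRNA next to CHD2, was at 38.1 ± 0.810, 31.03 ± 1.27 and 93.01 ± 1.58 CPM in the same order.

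The genes lie on GRCh38 as follows in GENCODE 44. GAS5 is at chr1:173858559-173868882 (minus strand), ZFAS1 at chr20:49278178-49299600 (plus) and SNHG1 at chr11:62851978-62855953 (minus). SNHG5 is at chr6:85650491-85678932 (minus), SNHG7 at chr9:136721366-136728184 (minus) and SNHG12 at chr1:28578538-28583132 (minus). SNHG15 is at chr7:44983019-44986961 (minus), SNHG17 at chr20:38419638-38435409 (minus), SNHG32 at chr6:31834608-31839766 (plus) and SNHG6 on the minus strand of chromosome 8. All are annotated as lncRNA, and gene models on the same strand overlap exons of SNHG5 and SNHG32. Exons of GAS5 overlap GAS5-AS1 on the other strand, and the same holds for ZFAS1 with ZNFX1, SNHG6 with MCMDC2, SNHG7 with DIPK1B and SNHG12 with TRNAU1AP. Whether the counting used strand is not given in the sources used here, so reads from such overlaps cannot be told apart.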

How the data were processed

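RNA was measured in 9 poly(A) libraries of K562 cells, 3 in each group by their labels. The authors quantified reads with salmon against Ensembl 93 transcripts on GRCh38, and each deposited table gives expected counts and TPM for 203027 transcripts. The deposited tables of the authors' comparisons, from sleuth (p-values, q-values and an effect b on the natural log scale) and SUPPA2 (differences in the fraction spliced in), were not used.

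Transcripts were joined by identifier to GENCODE 44 (97.9% matched, 85.8% of these with the same length), and expected counts were rounded and summed per gene. edgeR 4.0.16 (R 4.3.3) fitted all genes, and separately all isoforms, using the 6 libraries being compared, with TMM factors, filterByExpr at a minimum count of 10, quasi-likelihood tests and Benjamini-Hochberg adjustment over everything tested. All 10 genes passed the filter in each comparison, as did 117, 122 and 120 of 134 isoforms. Isoform shares were tested with limma 3.58.1 on the log2 ratio of an isoform's count to the rest of its gene, with 0.5 added to both. DESeq2 1.42.0, limma on log2 TPM and the settings under the dependence on processing were alternatives. The scripts were tested on simulated data.

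The 10 genes, the lists of 22 other noncoding (21 in the annotation) and 35 coding hosts, the markers and the tests were chosen with earlier results of these data known. Text named all 10 genes, isoforms with at least 10% of the TPM of their gene in a group or called in a comparison, other noncoding hosts called with a mean of at least 5 CPM, the 3 coding hosts with the largest change called, and the 5 genes of most similar profile. snoRNA positions were taken from RefSeq, and sequences from GENCODE 44. One sequence and some overlapping genes are not reported here. Replicate numbers did not pair libraries: correlations of same-numbered libraries ran from -0.178 to 0.0858. p-values cover the spread of 3 replicates a group, and counting errors do not cover salmon's assignment of reads to isoforms.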

Additional observations from a re-analysis of the deposited data

How the results depend on the processing

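At the gene level the counts of genes called held in every alternative within 1.5 times, and the 5 falls in the DHX34 knockdown and the 10 rises in the UPF1 knockdown kept their calls in all of them. Of 510 recomputed values of single genes 495 kept direction and call, 4 lost the call (SNHG12 between the knockdowns), 3 gained it (SNHG15 in the DHX34 knockdown) and 8 turned direction, none of these called in the main test. In the DHX34 knockdown the log2 value of SNHG1 became 0.0039 with limma on log2 TPM plus 0.5 or plus 1, that of SNHG17 became 0.1031 and 0.102 there and 0.0682 without the length trend, and that of SNHG7 became 0.0097 without the length trend. Leaving out 1 library gave -0.2845 to 0.0018 for SNHG7 and -0.0016 to 0.3256 for SNHG12.

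Isoform results depended more on the settings. The isoforms down in the DHX34 knockdown, 0 in edgeR, were 14 at an adjusted p of at most 0.05, 16 with DESeq2 and 2 with limma on log2(TPM + 0.5). The isoforms up in the UPF1 knockdown, 29, were 8 to 16 when 1 library was left out, and those higher than in the DHX34 knockdown, 31, were 47 at an adjusted p of at most 0.05 and 10 to 18 when 1 library was left out. Shares called were 0 to 1 for the DHX34 knockdown, 7 to 8 for the UPF1 knockdown and 3 to 6 between the knockdowns when 1 library was left out. At an adjusted p of at most 0.005 shares called were 2 in the UPF1 knockdown and 2 between the knockdowns, and diffSpliceDGE called 27 in the latter.

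With limma on log2(TPM + 0.5) the UPF1 values of isoforms with a snoRNA in an exon turned to 0.2325 for GAS5-201, 0.0171 for ZFAS1-210, 0.1575 for SNHG7-204, 0.2004 for SNHG15-202 and 0.2159 for SNHG32-207, none called. When 1 library was left out they ran from -0.0904 to 0.0671 for GAS5-201, -0.1191 to 0.0543 for SNHG15-202 and -0.0786 to 0.011 for SNHG32-207. Between the knockdowns the range was -0.3368 to 0.0908 for SNHG7-204, -0.0448 to 0.385 for SNHG12-205 and -0.3017 to 0.0061 for SNHG15-202. The cause was not tested for any of these.

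Replicate numbers are shared by the groups, but the libraries did not pair: 0 of 9 same-numbered pairs had a correlation above 0.1, and 6 of 18 comparisons had a library closest to its own number. With a replicate block the gene counts were the same, and isoforms up were 0 in the UPF1 knockdown and 0 between the knockdowns, as were the shares called (0 and 0). Removal of the GC trend, sorting of all models and the summed TPM without DHX34 knockdown replicate 3 were chosen after seeing the data, and no gene call changed with the first.

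Isoform values are limited by read assignment and by 3 libraries a group.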
